A study of Homo sapiens with 2 samples.

Results

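Protein arginine methyltransferases (PRMTs) transfer methyl groups from S-adenosylmethionine to arginine side chains of histones, RNA-binding proteins and other targets. Type I enzymes (PRMT1, PRMT2, PRMT3, CARM1, PRMT6 and PRMT8) leave asymmetric dimethylarginine, the type II enzymes PRMT5 and PRMT9 leave symmetric dimethylarginine, and PRMT7 leaves monomethylarginine. PRMT5 works in a complex with the WD-repeat protein WDR77, also called MEP50, which it needs for full activity. The genes described here are 7 enzymes of this family and WDR77, sought by exact name in a table of RPKM values (reads per kilobase of transcript, scaled by the mapped reads of each library). Of these 8 names, 6 had a row of their own (PRMT2, PRMT3, CARM1, PRMT5, PRMT7 and WDR77), out of 12936 named genes in all. PRMT1 had a value only through the locus it shares with C19orf76 (now ADM5), a neighbouring gene, and PRMT6 had no row among the values used here.

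The libraries came from the human lung adenocarcinoma cell line A549, with 1 library from cells labelled as a MYOCD knockdown and 1 from cells labelled as wild type. MYOCD encodes myocardin, a coactivator of serum response factor. The labels list Dox (doxycycline) for 72 h for both samples, whereas the design text describes the wild type as untreated, so a difference between the libraries may also be one between treated and untreated cells. The knockdown sample also carries the title MYOCD-/-, and the sources used here do not describe how it was made. With 1 library per group there is no replicate error, and none of the differences below was tested.

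MYOCD itself was listed at 0.40 RPKM in the knockdown library and 0.881 RPKM in the wild type library, both near the low end of the table, where the higher value of a locus was never below 0.652 RPKM. The depth of the libraries is unknown, because the table gives no counts. Markers of the line were present in both libraries: all 7 listed A549 genes had a row, among them the keratins KRT8 (1521 RPKM in the knockdown library and 1545 in the wild type library) and KRT18 (1683 and 1776 RPKM in the same order), whereas EPCAM was low at 2.15 and 2.24 RPKM. Of 15 markers of endothelial cells, leukocytes and fibroblasts, 3 had a row (CD14, LYZ and COL1A1), and their levels were 0.80 to 3.30 RPKM in the knockdown library and 0.575 to 3.13 RPKM in the wild type library. The PTPRC, PECAM1 and COL1A2 genes had no row.

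The arginine methyltransferase genes and WDR77 had similar levels in both libraries. Differences are given as log2((knockdown RPKM + 1) / (wild type RPKM + 1)), and limits of 25% higher and 20% lower (0.32 in size on that log2 scale) were used for counts. Of the 6 genes with their own row, 0 passed the upper limit and 0 passed the lower limit in the knockdown library. Among the 12158 named genes whose mean reached 1 RPKM, 7.99% passed the upper limit and 10.6% the lower limit. By a rule of 2-fold the counts for the 6 genes were again 0 and 0, against 0.65% of all these genes higher and 0.724% lower. The median difference of the 6 genes was 0.02, and that of all named genes was 0.01. The median size of the difference, whatever its sign, was 0.11 for the 6 genes and 0.15 for all named genes. A count of 6 of 6 within the limits is close to the background: 81.4% of named genes lay within them, as did 87.4% of the 3800 genes whose mean level falls in the range of these 6, a comparison added after the data were seen.

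**Figure D1:**
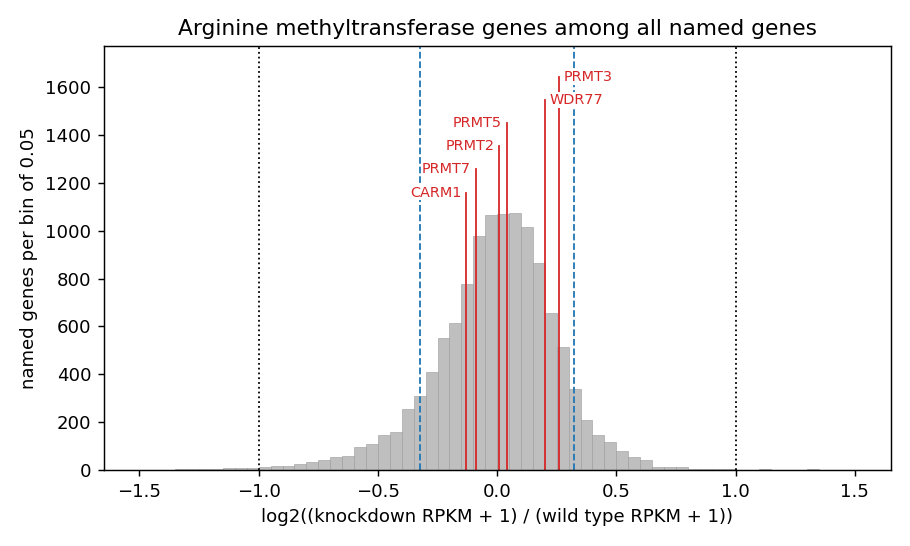
Number of named genes (vertical axis) per bin of the log2 difference between the knockdown and wild type libraries (horizontal axis), with dashed lines at the limits (0.32 in size), dotted lines at 2-fold and a red line for each of the 6 genes. All 6 red lines lie between the dashed lines, from -0.13 for CARM1 to 0.26 for PRMT3.

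PRMT5, the main enzyme for symmetric dimethylarginine, had 57.6 RPKM in the knockdown library and 56.1 RPKM in the wild type library, a log2 difference of 0.04. WDR77, its partner, had 28.2 RPKM in the knockdown library and 24.4 RPKM in the wild type library, a log2 difference of 0.20. The message of the partner was thus 15.5% higher in the knockdown library while that of the enzyme was 2.7% higher. The ratio of PRMT5 to WDR77 levels, both per length, was 2.04 in the knockdown library and 2.30 in the wild type library. PRMT5 spans bases 22920511 to 22929585 of chromosome 14 and WDR77 bases 111439890 to 111449376 of chromosome 1, both on the minus strand (GRCh38 coordinates of GENCODE release 29). The antisense gene PRMT5-AS1 overlaps 27.1% of the annotated exon bases of PRMT5, and ATP5PB, a gene for an ATP synthase subunit on the opposite strand, overlaps 12.5% of those of WDR77, while 24.0% lie under an unnamed gene on the same strand. The sources used here do not say whether counting used strand, so reads of such overlapping genes cannot be told apart.

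PRMT3, a type I enzyme that methylates the ribosomal protein RPS2, showed the largest difference of the 6. It had 25.9 RPKM in the knockdown library and 21.4 RPKM in the wild type library, a log2 difference of 0.26, or 21.0% higher without the pseudocount. Of all named genes, 73.5% had a smaller difference in size than PRMT3, and 61.5% a smaller one than WDR77, so neither stood at the edge of the table. The single-gene protein-coding loci closest to PRMT3 in both libraries, by Euclidean distance on log2(RPKM + 1), were TMEM9B (25.8 RPKM in the knockdown library and 21.4 in the wild type library, distance 0.004), ORC2 (25.9 and 21.5 RPKM in the same order, distance 0.008) and SCFD1 (26.1 and 21.4 RPKM, distance 0.011). These likenesses rest on 2 libraries. PRMT3 spans bases 20387530 to 20509294 of chromosome 11, plus strand.

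CARM1, a type I enzyme that acts as a coactivator of nuclear receptors and methylates histone H3, had 31.4 RPKM in the knockdown library and 34.4 RPKM in the wild type library, a log2 difference of -0.13. PRMT2, a type I enzyme with an SH3 domain, had 28.4 RPKM in the knockdown library and 28.3 RPKM in the wild type library, a log2 difference of 0.01. PRMT7 had 14.5 RPKM in the knockdown library and 15.5 RPKM in the wild type library, a log2 difference of -0.09. CARM1 and PRMT7 were thus the members with the lower value in the knockdown library, by less than 10 percent each, at -8.91% and -6.46%. CARM1 (chromosome 19, plus strand, 10871513 to 10923070) shares 19.9% of its annotated exon bases with YIPF2 on the opposite strand, and PRMT7 (chromosome 16, plus strand, 68310974 to 68358563) shares 2.53% with SMPD3. PRMT2 spans bases 46635167 to 46665124 of chromosome 21, plus strand, and no other gene shares its annotated exon bases.

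The locus holding PRMT1, the enzyme that makes most asymmetric dimethylarginine in mammalian cells, had 197 RPKM in the knockdown library and 195 RPKM in the wild type library, a log2 difference of 0.01. This is a value of the locus and not of PRMT1 alone. PRMT1 spans bases 49675786 to 49689029 of chromosome 19, plus strand. It shares 7.63% of its exon bases with ADM5, and holds the microRNA gene MIR5088 on the same strand. In both libraries the locus was among the highest named genes, with percentiles of 96.8 in the knockdown library and 96.9 in the wild type library.

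The order of levels was the same in both libraries. It ran from the PRMT1 locus through PRMT5, CARM1, PRMT2, WDR77, PRMT3 and PRMT7 to PRMT9, and all 6 genes with their own row kept their rank. PRMT9, listed under its older name PRMT10, had 2.67 RPKM in the knockdown library and 2.19 RPKM in the wild type library. The PRMT1 locus was 3.41 times as high as PRMT5 in the knockdown library and 3.48 times in the wild type library, and PRMT5 was 3.98 and 3.62 times as high as PRMT7 in the same order. CARM1, PRMT2, WDR77 and PRMT3 lay close together: CARM1 was 1.10 times as high as PRMT2 in the knockdown library and 1.22 times in the wild type library, and WDR77 was 1.09 and 1.14 times as high as PRMT3. Without replicates it cannot be said which of these neighbours differ beyond their spread. Summed over the 7 measured enzyme loci, RPKM came to 357 in the knockdown library and 353 in the wild type library, of which the PRMT1 locus held 55.1% and 55.3%.

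**Figure D2:**
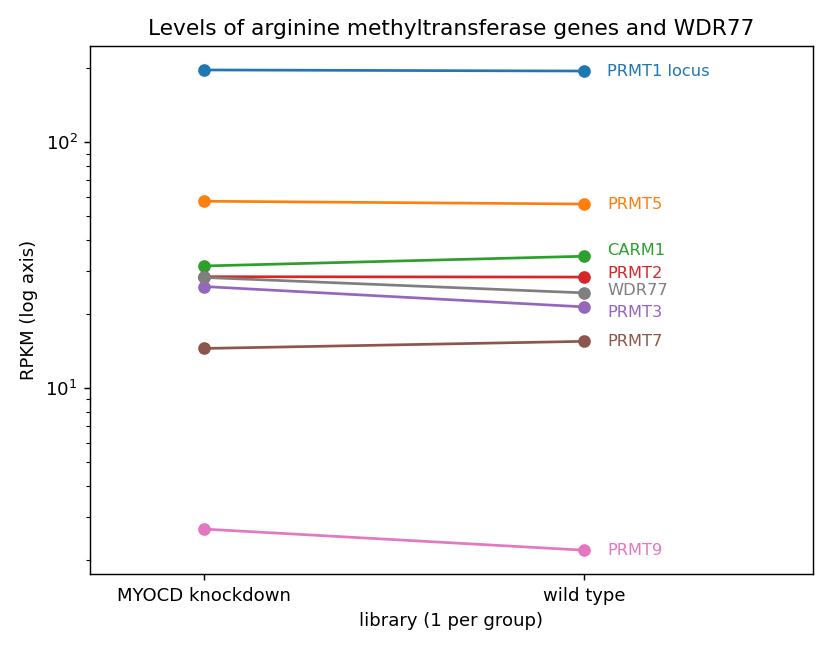
RPKM on a log axis of the PRMT1 locus, PRMT2, PRMT3, CARM1, PRMT5, PRMT7, PRMT9 and WDR77 in the knockdown library (left) and the wild type library (right), with a line joining the values of a gene. The lines run nearly level, from 197 and 195 RPKM for the PRMT1 locus down to 2.67 and 2.19 RPKM for PRMT9, and none of the 8 lines cross.

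PRMT3 and WDR77 had the largest differences, both higher in the knockdown library, and PRMT5 encodes the partner of WDR77. The sequences around the start of these genes are therefore shown. Each covers 250 bases before to 50 after a RefSeq start (GRCh38.p14), 5′ to 3′ on the strand of the gene, at chr11:20387466-20387765 for PRMT3 on the plus strand, chr1:111449207-111449506 for WDR77 on the minus strand and chr14:22929327-22929626 for PRMT5 on the minus strand. Capitals mark the E-box CACGTG in PRMT3 and WDR77, TCGCGAGA or its reverse complement in WDR77 (the overlap of both reads TCTCGCGAGA), and CCAAT in PRMT5, where it appears on the other strand as ATTGG.
PRMT3: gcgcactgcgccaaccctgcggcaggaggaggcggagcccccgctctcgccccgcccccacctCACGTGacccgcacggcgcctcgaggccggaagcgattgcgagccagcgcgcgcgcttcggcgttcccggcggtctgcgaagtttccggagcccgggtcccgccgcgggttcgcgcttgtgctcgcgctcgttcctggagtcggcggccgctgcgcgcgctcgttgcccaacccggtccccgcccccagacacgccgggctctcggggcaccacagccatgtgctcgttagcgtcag
WDR77: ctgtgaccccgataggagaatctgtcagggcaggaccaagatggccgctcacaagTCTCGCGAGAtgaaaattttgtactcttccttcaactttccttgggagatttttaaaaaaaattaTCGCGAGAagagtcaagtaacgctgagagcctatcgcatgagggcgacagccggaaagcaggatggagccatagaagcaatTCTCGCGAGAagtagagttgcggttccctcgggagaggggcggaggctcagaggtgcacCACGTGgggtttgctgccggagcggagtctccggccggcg
PRMT5: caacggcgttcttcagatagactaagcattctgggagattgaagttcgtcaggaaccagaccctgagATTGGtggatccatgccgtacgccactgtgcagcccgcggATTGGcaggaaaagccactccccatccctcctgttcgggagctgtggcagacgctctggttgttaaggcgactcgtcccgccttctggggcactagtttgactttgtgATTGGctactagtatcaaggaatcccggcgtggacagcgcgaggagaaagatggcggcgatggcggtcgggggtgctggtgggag

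These words were searched on both strands, and TCGCGAGA was chosen after the WDR77 sequence had been read. The E-box, the site of MYC and related factors, occurred once in PRMT3, 187 bases before the start. It also occurred once in WDR77, but past the start, with its first letter at base 11. It was in no window of the other 6 genes sought, and in 7.26% of 35116 promoter windows. TCGCGAGA formed 3 separate stretches in WDR77, counting overlapping matches as 1, and occurred in 1.15% of windows. CCAAT, the site of the factor NF-Y, occurred 3 times in PRMT5 and 2 times in PRMT1, against 34.6% of windows with at least 1. The CArG box, the site of serum response factor, through which myocardin acts, occurred in none of the windows of the 8 genes sought and in 1.29% of all windows. The absence of a word says only that these letters are not in the window. In the longest 3′ UTR annotated for each of these 8 genes, from 205 to 1451 bases long, the word AATATGC occurred 0 times. It occurred in 10.2% of 19102 protein-coding genes, a share beside which 0 of 8 genes says little.

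The adaptors that bring substrates to PRMT5 also lay within the limits. CLNS1A, which presents Sm proteins of the spliceosome to the enzyme, had 79.6 RPKM in the knockdown library and 81.4 RPKM in the wild type library. RIOK1, an alternative adaptor, had 8.13 RPKM in the knockdown library and 8.44 RPKM in the wild type library. COPRS, an adaptor for histones listed as C17orf79, had 56.7 RPKM in the knockdown library and 63.0 RPKM in the wild type library. With SHARPIN (26.4 and 24.4 RPKM in the same order) and PPP1R12A (13.6 and 15.1 RPKM), the 5 genes of this list had a median log2 difference of -0.05, and 0 of 5 passed either limit, beside 7.99% of all named genes past the upper and 10.6% past the lower one. Equal sums over all loci lower every log2 difference by about 0.20. COPRS (-0.34) and PPP1R12A (-0.33) then passed the lower limit, and the median of the list was -0.23. In that setting 25.1% of all named genes passed the lower limit, and the median over all named genes was -0.17. Of the further family genes, NDUFAF7 (listed as C2orf56), a mitochondrial arginine methyltransferase, had 15.9 RPKM in both libraries, and FBXO11, an F-box protein once named PRMT9, had 26.3 RPKM in the knockdown library and 28.8 RPKM in the wild type library. PRMT8, an enzyme known mainly from brain, had no row among the values used here.

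Among proteins that bind PRMT1, the related antiproliferative genes BTG1 and BTG2 had differences of opposite sign. BTG2 had 18.1 RPKM in the knockdown library and 12.3 RPKM in the wild type library, a log2 difference of 0.52, whereas BTG1 had 23.0 RPKM in the knockdown library and 30.5 RPKM in the wild type library, a log2 difference of -0.39. CNOT7, a deadenylase that binds the BTG proteins, and CHTOP, which binds and is methylated by PRMT1, had log2 differences of 0.12 and -0.02.

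Among genes of the methyl donor cycle, methionine salvage and polyamine synthesis, ODC1, ADI1, MTAP and SRM were higher in the knockdown library. All 17 listed genes of the S-adenosylmethionine (AdoMet) cycle, methionine salvage and polyamine synthesis were measured, 4 passed the upper limit and 0 the lower limit, beside 7.99% and 10.6% of all named genes, and the median log2 difference was 0.12. ODC1, the first enzyme of polyamine synthesis, had 134 RPKM in the knockdown library and 82.1 RPKM in the wild type library, a log2 difference of 0.70. ADI1, an enzyme of methionine salvage, had 35.9 RPKM in the knockdown library and 25.6 RPKM in the wild type library, a log2 difference of 0.47. The other 2 were MTAP and the spermidine synthase SRM. MTAP, which cleaves methylthioadenosine, a natural inhibitor of PRMT5, had 27.9 RPKM in the knockdown library and 21.0 in the wild type library. It lies next to a region known to be deleted in A549 cells, and which of its exons the reads cover was not tested. SRM, named after its value was seen, had 91.5 and 72.3 RPKM in the same order. MAT2A, which makes the methyl donor, had 127 RPKM in the knockdown library and 105 RPKM in the wild type library, a log2 difference of 0.27, close to that of PRMT3. At the other end were AHCYL1, at -0.18, and MRI1, at -0.17. With the libraries scaled to equal sums over all loci, the list had 1 gene past the upper limit (ODC1, 0.50) and 2 past the lower limit. The median of the list was then -0.07. Of all named genes, 2.71% were past the upper and 25.1% past the lower limit in that setting, with a median of -0.17.

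Genes for the breakdown of methylarginine and for citrulline formation had the widest range of the lists described here, from -0.76 for PADI2 to 0.59 for DDAH1. Of 9 listed, 5 were measured, of which 1 passed the upper limit and 3 the lower limit, beside 7.99% and 10.6% of all named genes. With equal medians 2 passed the lower limit, since PADI3, at -0.32, was then just inside it before rounding. DDAH1 and DDAH2, named for the breakdown of free asymmetric dimethylarginine, differed in sign. DDAH1 had 7.25 RPKM in the knockdown library and 4.48 RPKM in the wild type library, a log2 difference of 0.59. DDAH2 had 13.9 RPKM in the knockdown library and 20.5 RPKM in the wild type library, a log2 difference of -0.53. Both signs held with equal sums over all loci, at 0.42 and -0.71. PADI2, a peptidylarginine deiminase that converts arginine to citrulline, had 1.99 RPKM in the knockdown library and 4.06 RPKM in the wild type one, and PADI3 (named after its value was seen) had 4.46 and 5.85 RPKM in the same order. JMJD6, an oxygenase that has been proposed as an arginine demethylase, had a log2 difference of -0.05.

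Readers of methylarginine lay within the limits in 6 of 6 measured genes, with a median log2 difference of -0.13, beside 81.4% of all named genes within them. With equal sums over all loci, 3 of the 6 (SMN2, TDRD7 and TDRKH) passed the lower limit and the median was -0.30. The same scaling put 25.1% of all named genes past the lower limit, with a median of -0.17. SMNDC1 and SND1, both Tudor-domain proteins, were at 0.05 and -0.02, and TDRD7 was at -0.19. SMN2, the lowest at -0.27, is nearly identical to SMN1, so its reads are uncertain.

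Messages of known substrates passed the limits in counts near the shares over all named genes, which were 7.99% past the upper and 10.6% past the lower limit. Of 8 listed PRMT5 substrates, 1 passed the upper limit: COIL, the marker protein of Cajal bodies, with 18.2 RPKM in the knockdown library and 14.1 RPKM in the wild type library. It did not pass with equal sums over all loci, at 0.16, or with equal upper quartiles, at 0.31. ZNF326 was at 0.17, and the lowest were the cell cycle factor E2F1, at -0.23, and the RNA polymerase subunit POLR2A, at -0.12. Of 12 listed PRMT1 substrates, 1 passed the lower limit: the RNA-binding protein SERBP1, with 51.4 RPKM in the knockdown library and 70.2 RPKM in the wild type library. TAF15, an RNA-binding protein, was at 0.27, and HNRNPA1, a splicing regulator, was at -0.11. Of 9 listed CARM1 substrates, 1 passed the lower limit: the nuclear receptor coactivator NCOA3, with 41.0 RPKM in the knockdown library and 53.7 RPKM in the wild type library. SMARCC1, a subunit of SWI/SNF complexes, was at 0.25, CREBBP at 0.14 and MED12 at -0.21. RPS2, the PRMT3 substrate, had 2692 RPKM in the knockdown library and 2697 RPKM in the wild type one. PDCD2L, which binds PRMT3, had 32.6 and 37.4 RPKM in the same order. With equal sums over all loci, E2F1 (-0.42), MED12 (-0.38) and PDCD2L (-0.39) also passed the lower limit, beside 25.1% of all named genes.

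**Figure D3:**
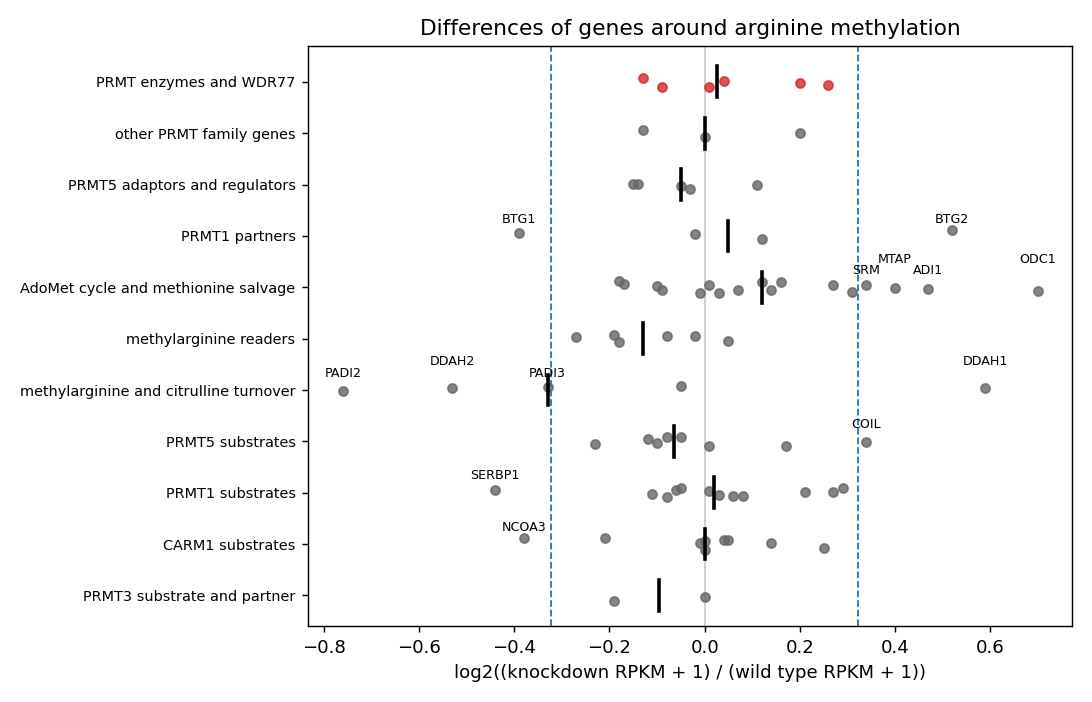
Log2 differences between the knockdown and wild type libraries (horizontal axis) for each measured gene of the lists around arginine methylation (rows), with black bars at the list medians and dashed lines at the limits (0.32 in size). The 6 red points of the enzymes and WDR77 lie between the dashed lines, whereas ODC1, BTG2 and DDAH1 lie to the right and PADI2, DDAH2 and SERBP1 to the left.

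The signs of the smallest differences depended on how the libraries were scaled. The factor applied to the knockdown library was 0.871 with equal sums over all loci, which include the loci without a gene name. The scalings on named genes changed less, with factors of 0.995 for equal sums, 1.006 for equal medians and 0.974 for equal upper quartiles. With equal sums over all loci the log2 differences were 0.07 for PRMT3, 0.01 for WDR77 and -0.16 for PRMT5. They were -0.18 for PRMT2, -0.28 for PRMT7 and -0.32 for CARM1. CARM1 passed the lower limit, though only narrowly and by its value before rounding. The median over all named genes moved with these differences, to -0.17, which is also the median of the 6 genes in that setting. The order of the 6 differences, from PRMT3 at the top to CARM1 at the bottom, is the same under each scaling, since a scaling moves them nearly alike.

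**Figure D4:**
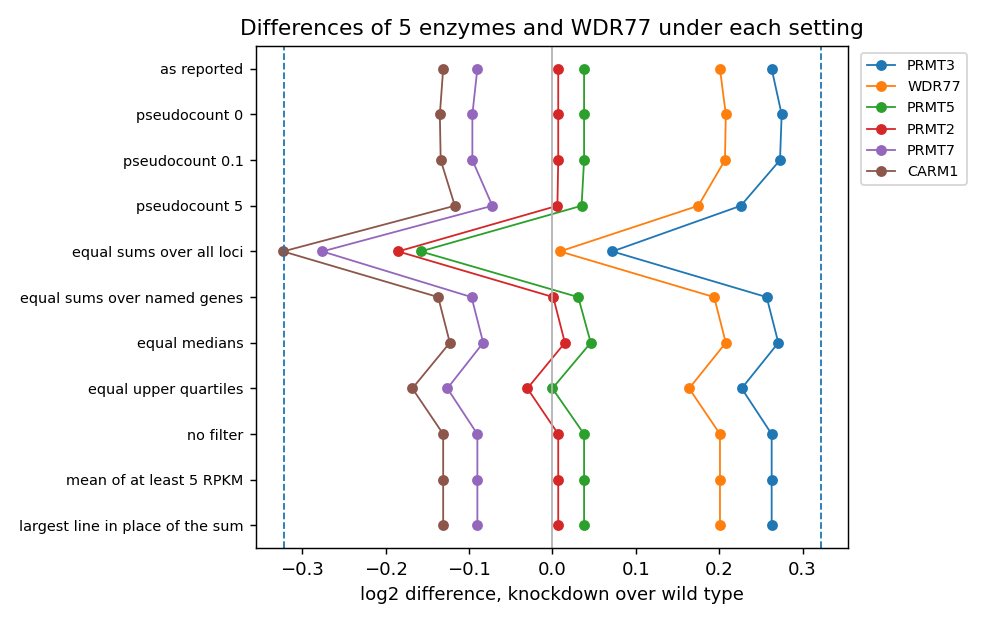
Log2 differences between the knockdown and wild type libraries (horizontal axis) of the 5 enzymes and WDR77 under each setting (rows), 1 coloured line per gene, with dashed lines at the limits (0.32 in size). The points shift together to the left with equal sums over all loci, where CARM1 reaches -0.32, and vary little elsewhere. The rows of the filters and of the largest line could not differ from the values as reported.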

How the data were processed

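Total RNA (Trizol) went into Illumina TruSeq RNA libraries, per the labels' protocols. The deposited values are RPKM per locus, computed by the authors. Per the submitters' processing notes, which state no roles, the tools were TopHat2 2.0.10 with Cufflinks 2.2.1, and the genomes GRCh38.p12 and, from the fruit fly, BDGP5. Annotation and strand use: not given in the sources used here.

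Loci without a gene name (1909 of 14952) were left out, values of a name found on several lines were summed, and log2 differences used a pseudocount of 1, which understates the change of low genes. Lists and shares used genes whose mean reached 1 RPKM. No test was possible with 1 library per group, so fixed limits (25% higher or 20% lower, and 2-fold) were used. The genes, lists and limits were chosen with earlier results of these data known. The text names every gene sought, MYOCD, every measured gene of lists of at most 6 genes, the 2 highest and 2 lowest of longer lists, MTAP and MAT2A, and the 3 genes nearest to the largest difference. A gene that this rule takes is not reported here. Symbols came from RefSeq (94.3% of names matched), coordinates and 3′ UTRs from GENCODE release 29, promoter windows from RefSeq. The authors' loci may have other boundaries. Python 3.11.15, numpy 2.4.6 and pandas 2.3.3 were used. The calculation was tested on simulated data with planted changes larger than 2-fold, counted by the 2-fold limit. The limits of 25% higher and 20% lower were not tested in that way. The alternatives were pseudocounts of 0, 0.1 and 5, 4 scalings, no filter or a mean of 5 RPKM, the largest line in place of the sum, and other genes to compare with.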

Additional observations from a re-analysis of the deposited data

How the results depend on the processing

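Differences were recomputed under 12 alternatives, of which the comparison with genes in the range of levels of the members was added after the data were seen. With no replicates, a log2 value was taken as moved if it changed by more than 0.23, the half-width of the central 68% of differences over all named genes. Of 276 recomputed values 270 moved less than that, or by less than 1.5 times for counts and shares. This count was partly fixed in advance. The largest scaling shift was -0.20 in log2, so a scaling alone could not make a log2 value count as moved. A change of the genes compared with, or of the filter, leaves the differences of the 6 genes as they were. The largest line in place of the sum does so too, since none of the 6 names was on several lines. The number of the 6 genes at least 20% lower was 1 (CARM1) in place of 0 with equal sums over all loci, where 25.1% of all named genes were lower and 2.71% higher. The other shares that moved were 3.45% higher and 5.03% lower with a pseudocount of 5, and 6.37% lower among genes in the range of levels of the 6 genes. The median of the 6 genes ran from -0.17 to 0.03, and the sign of the PRMT2 and PRMT5 differences is not settled, since they ran from -0.18 to 0.01 and from -0.16 to 0.05. No paired analysis was possible because each group has 1 library. Depth is unknown, so no counting error can be set on any value.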

Other observations

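The CDKN2A region of chromosome 9 is known to be deleted in A549 cells, and MTAP, which lies next to it, is often lost with it in tumours. The MTAP locus (plus strand, 21802543 to 21937651, GRCh38) nevertheless had 27.9 RPKM in the knockdown library and 21.0 RPKM in the wild type library, above 73.5% and 66.5% of named genes. CDKN2A (minus strand, 21967753 to 21995301) had 0.725 RPKM in the knockdown library and 0.221 RPKM in the wild type one, and KLHL9, on the other side of MTAP (21329671 to 21335380), had 19.3 RPKM in the knockdown library and 17.7 RPKM in the wild type library. CDKN2A and KLHL9 were chosen after their values were seen. On the same strand, AL359922.1 shares 3.15% and ERVFRD-3 4.68% of the annotated exon bases of MTAP. Which exons the reads of the MTAP locus cover was not tested, since the table gives 1 value per locus.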
